A study of Homo sapiens with 12 samples.

Results

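The genes described here are 10 genes of mucus production and epithelial secretion in gut and pancreatic duct: GCNT3, AGR2, MUC1, MUC2, MUC13, MUC20, TFF1, TFF2, TFF3 and SPDEF. They were taken by name from a table of 34687 gene rows, and all 10 were found there. GCNT3 and AGR2 were selected on their signal ratios of drug over DMSO in these same columns, among the largest after ICG-001 in HCT116 and PANC1 cells, and the other 8 were added for their function in mucus with earlier results of these data known, so the changes of these genes are given as a description and no test is attached to them. RNA came from HCT116, a human colon cancer line, and PANC1, a human pancreatic ductal carcinoma line, and was measured on Illumina HumanHT-12 BeadChips, on which labelled RNA lights up the probe of its gene. Cells received DMSO at 0.05%, the solvent control, or 10 uM of ICG-001 or C646, and were collected after 12 or 96 h, which makes 12 groups. Each group had 1 column of values, the authors' mean of 2 arrays (3 arrays for PANC1 ICG-001 12 h), which leaves no measure of replicate error, and no p-value is given.

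ICG-001 binds the co-activator CBP and blocks its interaction with β-catenin, whereas C646 inhibits the histone acetyltransferase activity of CBP and its relative p300. Mucus is built from mucins, large proteins whose repeats carry dense O-linked sugar chains. Secreted mucins such as MUC2 form the gel, and membrane mucins such as MUC1, MUC13 and MUC20 stay anchored at the cell surface. GCNT3 is a Golgi enzyme that adds the branch of core O-glycans, AGR2 is a protein disulfide isomerase of the endoplasmic reticulum that mucin folding requires, and the trefoil peptides TFF1, TFF2 and TFF3 are secreted together with mucins. SPDEF is a transcription factor of goblet and other secretory cells.

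RefSeq promoters of assembly GRCh38.p14, with 250 bases before the transcript start and 50 from it, were found for 6 of the 10 genes. Those of GCNT3 and AGR2 are shown because these genes had the largest rise and the largest fall of the 10, and that of MUC1 because it is the only 1 of the 10 above the detection limit in all 12 columns. Capitals mark matches to 5 motifs searched on both strands.
GCNT3, chr15:59611533-59611832, plus strand: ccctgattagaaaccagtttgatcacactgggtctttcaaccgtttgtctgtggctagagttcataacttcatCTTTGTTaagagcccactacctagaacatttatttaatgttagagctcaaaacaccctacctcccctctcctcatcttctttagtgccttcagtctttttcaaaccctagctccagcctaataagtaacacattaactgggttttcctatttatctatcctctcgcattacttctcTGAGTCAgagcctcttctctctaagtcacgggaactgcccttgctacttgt
AGR2, chr7:16804950-16805249, minus strand: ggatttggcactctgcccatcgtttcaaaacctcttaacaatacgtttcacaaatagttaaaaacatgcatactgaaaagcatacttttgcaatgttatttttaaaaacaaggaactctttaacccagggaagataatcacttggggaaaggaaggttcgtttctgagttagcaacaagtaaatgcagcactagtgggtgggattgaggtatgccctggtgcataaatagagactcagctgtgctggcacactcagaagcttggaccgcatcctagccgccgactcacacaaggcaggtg
MUC1, chr1:155192866-155193165, minus strand: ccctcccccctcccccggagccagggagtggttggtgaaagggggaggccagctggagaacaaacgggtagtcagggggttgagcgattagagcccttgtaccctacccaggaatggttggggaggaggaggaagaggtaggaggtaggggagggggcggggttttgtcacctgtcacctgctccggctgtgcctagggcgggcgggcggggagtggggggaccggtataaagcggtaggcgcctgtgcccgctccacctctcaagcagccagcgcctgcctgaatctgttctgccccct

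The GCNT3 promoter held 1 TCF/LEF word, CTTTGTT, whose first base lay 177 bases before the transcript start. It also held 1 AP-1 word, TGAGTCA, across the start itself. TCF/LEF was searched as CTTTGAA or CTTTGAT and also as CTTTGTA or CTTTGTT, and 13.8% of 35116 RefSeq promoters of the same length held at least 1 of them. AP-1 was searched as TGANTCA, which 7.71% of promoters held. The amino acid response element TGATGNAA (3.62% of promoters), the forkhead words TGTTTAC and TATTTAC (5.97%) and the ER stress element (0.0769%) had no match in the GCNT3 promoter. No motif matched in the promoters of AGR2 and MUC1. Among the other promoters, MUC13 held a TCF/LEF and an AP-1 word, MUC2 an AP-1 word and SPDEF a forkhead word. No 2 of the 5 motifs overlapped in these promoters. A match is a run of letters and was not tested as a binding site.

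Which of the 10 genes could be measured differed between the lines. A signal was called above the detection limit where it exceeded the bulk of background values, with limits from 142.7 to 144.7 for HCT116 and from 135.6 to 137.9 for PANC1. The distribution of values differed between the lines, as after separate normalization, so signals are compared only within a line. In HCT116, GCNT3 and MUC1 were above the limit in all 6 columns and MUC2 in 1 column, and the other 7 genes were in none. In PANC1, AGR2, MUC1, TFF2 and TFF3 were above it in all 6 columns and MUC2 in 2, and the other 5 genes were in none. Thus GCNT3 was above the limit only in HCT116 columns, and AGR2, TFF2 and TFF3 only in PANC1 columns, while MUC13, MUC20, TFF1 and SPDEF were at or under it in all 12. For those genes a level below the limit could not be told from background, and their absence is not shown.

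**Figure D1:**
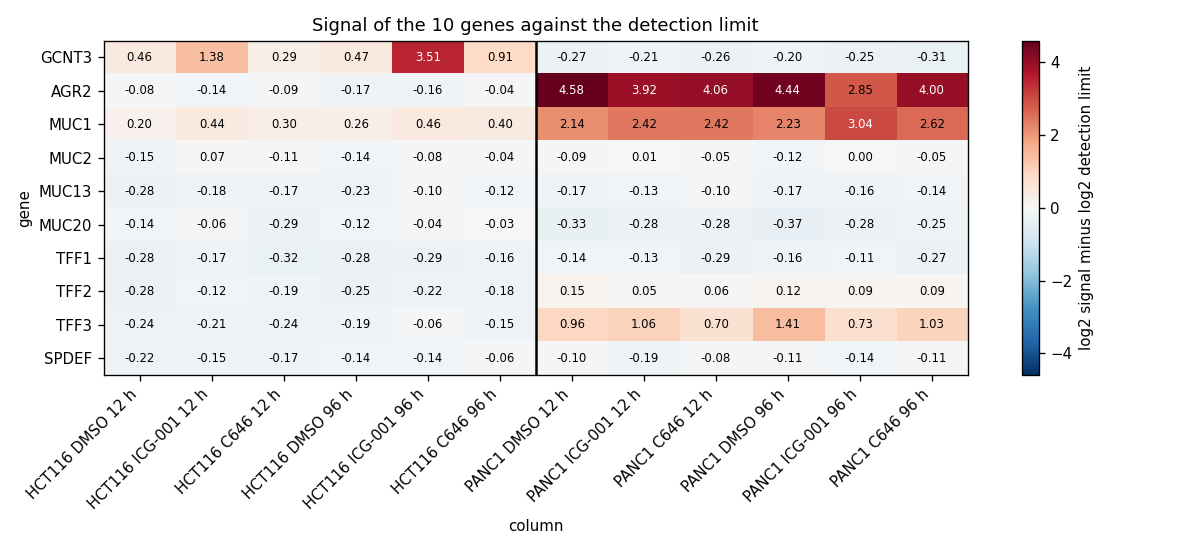
Signal of the 10 genes in the 12 columns, as log2 signal minus the log2 detection limit of the column, with the HCT116 columns left of the line. GCNT3 reaches 3.51 above the limit with ICG-001 at 96 h in HCT116 and is under it in PANC1, AGR2 lies 2.85 to 4.58 above it in PANC1 only, and 4 rows never exceed 0.

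Epithelial identity was checked with 5 markers, EPCAM, CDH1, KRT8, KRT18 and KRT19, and all 5 were above the limit in all columns of both lines. Of 7 markers of intestinal epithelium, CDX2 was above it in all HCT116 columns, GPA33 in 5 and KRT20 in 1. CDX1, VIL1, CDH17 and LGALS4 were never above it in HCT116. Among markers of pancreatic duct, KRT7, SOX9 and PDX1 were above it in all PANC1 columns and CFTR in some, and ONECUT1 in none. CDX2 was also above the limit in all PANC1 columns, LGALS4 and GPA33 in 5 each and CDH17 in 2. SOX9 and PDX1 were above it in all HCT116 columns. Members of both lists were thus measured in both lines, and these markers did not set the lines apart. The leukocyte markers PTPRC and CD3E and the fibroblast markers COL1A2, DCN, LUM and PDGFRB were under the limit in all 12 columns. Of the same lists, CD68 and COL1A1 were above it in all columns of both lines, COL3A1 in 1 column of HCT116 and 5 of PANC1, and LYZ in 3 of HCT116 and none of PANC1.

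To determine how the drugs altered these genes, each treated column was set against the DMSO column of its line and time point, and a gene was called changed at a ratio of at least 1.5. Genes at or under the limit in both columns were not tested. Of the 10 genes, GCNT3 was the only one called in HCT116, and it rose with ICG-001 at both time points. At 12 h with ICG-001, 1 of the 3 measured genes was called, against 8.95% of all genes tested. At 96 h with ICG-001, 1 of 2 was called, against 10.3%. GCNT3 was selected on its ratios after ICG-001 in these columns, so these counts are not read as a result. With C646, 0 of 2 were called at 12 h and 0 of 2 at 96 h, against 4.26% and 3.13% of all genes tested.

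GCNT3 had a signal of 198.9 in DMSO at 12 h and 199.7 in DMSO at 96 h. With ICG-001 it was 371 at 12 h and 1622 at 96 h. With C646 it was 176.4 at 12 h and 269 at 96 h. The ICG-001 columns were thus the highest of the 6, and the DMSO columns of the time points lay close together. KRT7, a keratin used here as a duct marker, moved in the same HCT116 columns, from 141.5 in DMSO to 389 with ICG-001 at 12 h and from 140.02 to 336 at 96 h. As DMSO was under the limit, these were rises of at least 2.7-fold and 2.3-fold, and their part in the GCNT3 values was not tested. The rise of GCNT3 with ICG-001 was 1.86-fold at 12 h and 8.12-fold at 96 h. On the log2 scale these changes were 0.90 and 3.02, and the latter was the 2nd highest among 17028 genes. With C646 the log2 ratios were -0.17 at 12 h and 0.43 at 96 h, neither of which reached 1.5-fold. After normexp background correction the C646 ratio at 96 h was 0.75 and would be called. Bulk RNA cannot tell a higher level per cell from more cells that carry the RNA. In PANC1 GCNT3 stayed between 109.7 and 120.4, under the limit.

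In PANC1, AGR2 fell with ICG-001 at both time points, and TFF3 fell and MUC1 rose at the later one. At 12 h with ICG-001, 1 of 5 measured genes was called, against 2.57% of all genes tested. At 96 h with ICG-001, 3 of 5 were called, against 7.41%. AGR2 was selected on its ratios after ICG-001 in these columns, so these counts are not read as a result. With C646, 0 of 4 were called at 12 h and 0 of 4 at 96 h, against 6.73% and 3.97%. Since ICG-001 and C646 share the DMSO column of a time point, their values are set side by side below and their likeness is not read as a result.

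AGR2 was bright in PANC1, with a signal of 3293 in DMSO at 12 h and 2995 in DMSO at 96 h. ICG-001 gave 2062 at 12 h and 982 at 96 h, and C646 gave 2258 and 2169. All 4 treated columns lay under both DMSO columns, and ICG-001 at 96 h was the lowest. The ICG-001 columns were 1.60-fold lower than DMSO at 12 h and 3.05-fold lower at 96 h. On the log2 scale AGR2 fell by 0.68 and 1.61, and only 5 of 17324 genes had a lower ratio after 96 h. The C646 log2 ratios were -0.54 at 12 h and -0.47 at 96 h, under 1.5-fold. That at 12 h, 1.46-fold lower, would be called after normexp, at -0.59, and after quantile normalization over all 12 columns, also at -0.59. In HCT116 AGR2 ranged from 128.0 to 138.7, under the limit.

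Markers of epithelium moved with AGR2 where PANC1 had received ICG-001 for 96 h. Of the 5 epithelial markers, 3 fell at least 1.5-fold, KRT19 by 1.17, KRT8 by 1.06 and EPCAM by 0.78 on the log2 scale, and the ratios of KRT18 and CDH1 were -0.53 and -0.49. The summed signal of the 5 markers was 8882 in that column and 18830 in DMSO at 96 h, and 14362 against 20320 at 12 h. KRT8 and KRT19 made up most of these sums. At 12 h of ICG-001 none of the 5 was called, their median log2 ratio was -0.09, and EPCAM was higher, at 873 against 813. With C646 the sums were 17747 and 18681 at 12 and 96 h. In HCT116 the sums ranged from 21844 to 24807 over the 6 columns and none of the 5 markers was called against DMSO. The part of this shift in the values of AGR2, TFF3 and MUC1 was not tested.

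MUC1, a membrane mucin of ductal and other simple epithelia, was measured in both lines. In PANC1 its signal was 607 in DMSO at 12 h and 649 in DMSO at 96 h. With ICG-001 it was 730 at 12 h and 1120 at 96 h, and with C646 it was 726 and 833. Each treated column lay above both DMSO columns, and ICG-001 at 96 h stood highest. The rise after 96 h of ICG-001 was 1.73-fold, or 0.79 on the log2 scale. The other PANC1 log2 ratios, 0.27 for ICG-001 at 12 h and 0.26 and 0.36 for C646 at 12 and 96 h, did not reach 1.5-fold.

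In HCT116 MUC1 lay close to the limit, with 166.0 and 173.0 in DMSO at 12 and 96 h. ICG-001 gave 193.5 and 195.9, and C646 gave 178.6 and 188.5. Here too each treated column lay above both DMSO columns, but the log2 ratios, 0.22 and 0.18 for ICG-001, 0.11 and 0.12 for C646, were all far from 1.5-fold. For scale, genes that never exceeded the limit in a line had log2 ratios with an SD of 0.062 to 0.073, depending on the comparison. That SD is a spread across rows near background and gives no replicate error for MUC1.

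**Figure D2:**
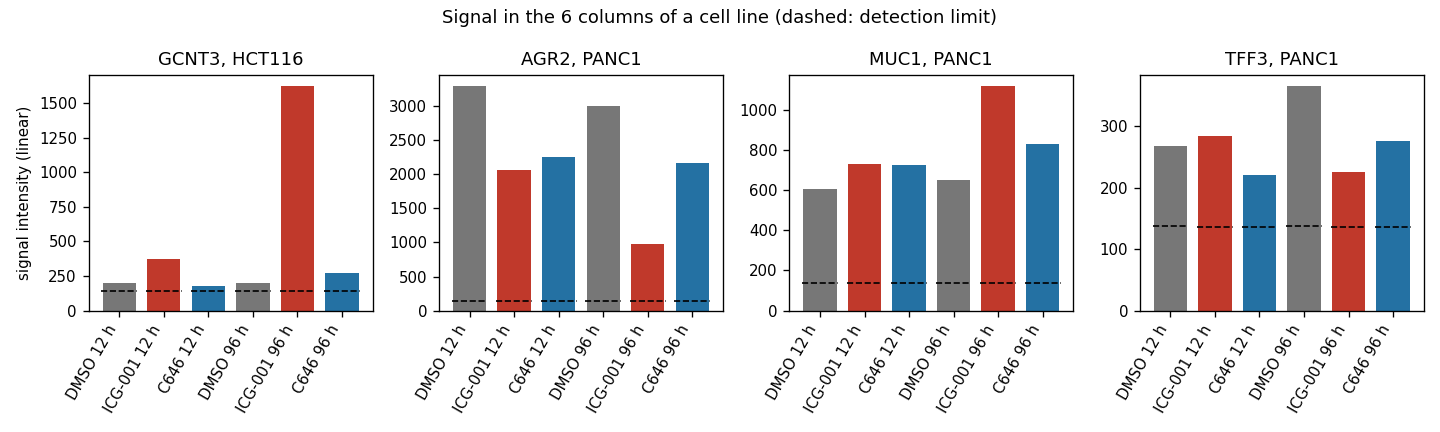
Signal intensity on a linear scale of GCNT3 in HCT116 and of AGR2, MUC1 and TFF3 in PANC1, 1 bar per column (an authors' mean of 2 or 3 arrays, with no error bar), with dashed lines at the detection limit. GCNT3 and MUC1 are highest, at 1622 and 1120, and AGR2 is lowest, at 982, with ICG-001 at 96 h, and TFF3 is highest in DMSO at 96 h, at 366.

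Among the trefoil peptides, TFF3 changed in ICG-001-treated PANC1 cells at 96 h, and TFF2 was measured but not called. TFF3 had a signal of 269 in DMSO at 12 h and 366 in DMSO at 96 h. ICG-001 gave 284 at 12 h and 225 at 96 h, and C646 gave 220 and 277. At 96 h both treated columns lay under DMSO, whereas at 12 h the ICG-001 column lay slightly above it. With ICG-001 at 96 h TFF3 was 1.62-fold lower, a log2 change of -0.70. The other log2 ratios were 0.08 for ICG-001 at 12 h and -0.29 and -0.40 for C646 at 12 and 96 h. The DMSO column itself was 1.36-fold higher at 96 h than at 12 h, so the size of the fall depends on which DMSO column is used. Against DMSO at 12 h, the 96 h ICG-001 signal, 225 against 269, was lower by less than 1.5-fold and would not be called.

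TFF2 was just above the limit in PANC1, at 152.5 and 149.6 in DMSO, while ICG-001 gave 141.0 and 144.5 and C646 gave 141.8 and 144.2, each at 12 and then 96 h. The treated columns were all under both DMSO columns, by at most 0.11 on the log2 scale. TFF1, an estrogen-responsive trefoil peptide, ranged from 116.1 to 127.7 in HCT116 and from 111.4 to 125.7 in PANC1, under the limit.

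MUC2, the gel-forming mucin of the intestine, was above the limit in HCT116 with ICG-001 at 12 h alone, at 149.3 against 130.8 in DMSO, which is at least 1.03-fold higher than the limit of the DMSO column. At 96 h the HCT116 values were 135.5 with ICG-001 and 131.4 in DMSO, both under the limit. After normexp correction the 12 h difference of MUC2 became 0.61 on the log2 scale and would be called, although the DMSO column gives only a bound. In PANC1 ICG-001 gave a MUC2 signal of 137.2 at 12 h and 135.9 at 96 h, barely above the limit, and no fold can be given over DMSO. MUC13, a membrane mucin of the intestine, ranged from 119.5 to 133.2 in HCT116 and from 121.9 to 127.0 in PANC1. MUC20, another membrane mucin, ranged from 118.7 to 140.3 and from 107.0 to 114.1, and SPDEF from 124.1 to 137.0 and from 119.5 to 128.7. None of these signals exceeded the limit of its column.

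**Figure D3:**
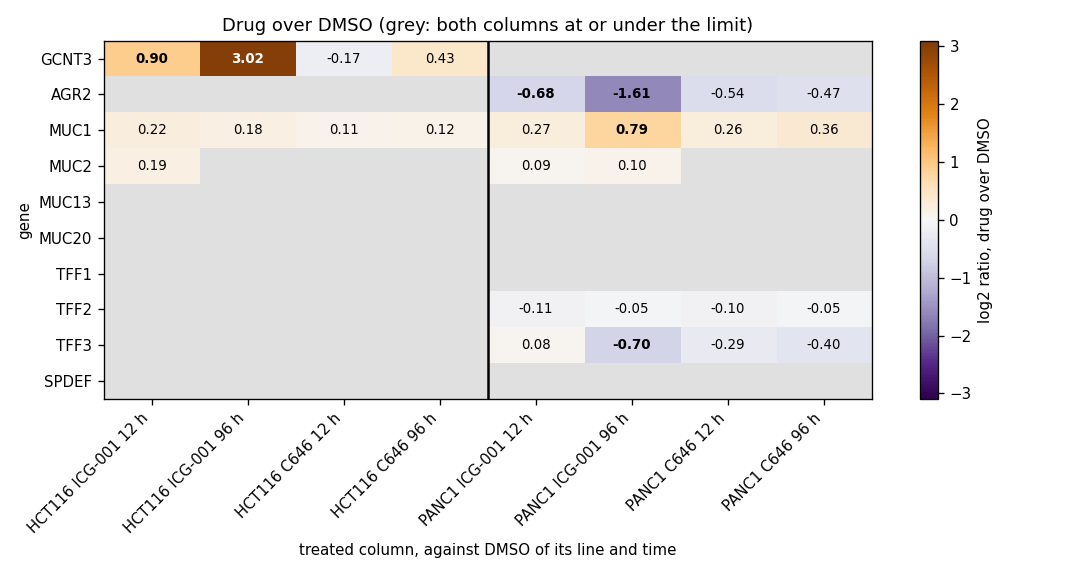
Log2 ratios of drug over DMSO for the 10 genes in the 8 comparisons, with grey cells where both columns were at or under the detection limit and bold values at 1.5-fold or more. The bold values are 0.90 and 3.02 for GCNT3 in HCT116, and -0.68 and -1.61 for AGR2, 0.79 for MUC1 and -0.70 for TFF3 in PANC1, all with ICG-001.

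The drugs were then compared directly at matched dose and time, ICG-001 over C646, in 4 pairs of columns. They differ in mode of action as given above. In HCT116, 1 of 3 measured genes at 12 h and 1 of 2 at 96 h differed by 1.5-fold, against 6.24% and 6.41% of all genes tested. This was GCNT3, 2.10-fold higher with ICG-001 at 12 h and 6.02-fold higher at 96 h. In PANC1, 0 of 5 genes differed by 1.5-fold at 12 h, against 2.54%, and 1 of 5 at 96 h, against 6.75%. This was AGR2, 2.21-fold lower with ICG-001 at 96 h, a log2 ratio of -1.14, while at 12 h its ratio was -0.13. All 5 epithelial markers were at least 1.5-fold lower with ICG-001 than with C646 in PANC1 at 96 h, and none of them was at 12 h. For MUC1 in PANC1 the log2 ratios of ICG-001 over C646 were 0.01 at 12 h and 0.43 at 96 h, and for TFF3 they were 0.37 and -0.30. With 1 column per group, no interval of these differences can be given. GCNT3 and AGR2 were selected on ICG-001 columns that the ratios reuse, so the counts of genes called are not read as a result.

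Columns of the 2 time points were compared within each treatment. Cells for the later time point were seeded at lower density and passaged, so time, density and handling cannot be told apart. In DMSO, 0 of 2 measured genes in HCT116 and 0 of 4 in PANC1 differed by 1.5-fold between 96 and 12 h, against 3.21% and 1.32% of all genes tested. With ICG-001, GCNT3 was 4.38-fold higher at 96 h than at 12 h in HCT116, the 1 of 3 genes called, against 6.69%. In PANC1 with ICG-001, AGR2 was 2.10-fold lower and MUC1 1.53-fold higher at 96 h, which were 2 of 5 genes, against 4.01%. With C646, GCNT3 was 1.53-fold higher at 96 h in HCT116, the 1 of 2 genes called, against 7.11%, and 0 of 4 genes were called in PANC1, against 0.477%. The TFF3 log2 ratios of 96 over 12 h in PANC1 were 0.44 in DMSO, 0.33 with C646 and -0.34 with ICG-001. After normexp the TFF3 ratio in DMSO was 0.60 and would be called. Since GCNT3 and AGR2 were selected on ICG-001 columns reused here, the counts of genes called with ICG-001 are not read as a result.

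Other genes of mucus synthesis and secretion were taken from 8 lists of 113 genes in all, of which 110 were in the table. In HCT116, ICG-001 called 2 of 66 measured genes higher and 2 lower at 12 h, and 5 of 66 higher and 1 lower at 96 h. C646 called 1 of 65 higher and 2 lower at 12 h, and 1 of 64 higher and 2 lower at 96 h. In PANC1, ICG-001 called 0 of 59 at 12 h, and 2 of 58 higher and 5 lower at 96 h. C646 called 1 higher and 1 lower at each time point, of 60 and 59. These are counts of a few genes, to be read against the shares of all genes called given above for the same comparisons. Over the 8 lists pooled, the median log2 ratios were between -0.05 and 0.05, and those over all genes tested between -0.01 and 0.01. Medians of single lists ranged more widely, from -0.26 for 10 secretory lineage factors in HCT116 with C646 at 12 h to 0.71 for the 2 measured goblet cargo genes in PANC1 at 96 h of ICG-001.

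Of 14 other mucins in the table, among them MUC4, MUC5AC, MUC5B, MUC6 and MUC16, 2 to 4 were above the limit in a comparison and none was called in the 8 comparisons with DMSO. Enzymes that add the first sugar, the GALNT family of 19 rows, had 0 to 2 members called per comparison with DMSO. GALNT12 rose 2.13-fold in HCT116 with ICG-001 at 96 h, from 569 to 1208, whereas its ratio at 12 h was -0.57 on the log2 scale. GALNT3 rose with C646, by 0.81 and 0.85 on the log2 scale at 12 and 96 h in PANC1 and by 0.74 at 12 h in HCT116. In PANC1, 96 h of ICG-001 lowered the GALNT2 signal from 348 to 222, by 1.56-fold. The other calls were GALNT5 higher and GALNT11 lower in HCT116 at 12 h of ICG-001 and GALNT1 lower in PANC1 at 96 h of ICG-001, each by 1.51 to 1.53-fold.

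Among the 10 genes of O-glycan core extension and branching, B3GNT6 was the only one called against DMSO. It was at least 1.60-fold lower in HCT116 with ICG-001 at 12 h and in PANC1 it fell from 565 to 363 at 96 h of ICG-001. The RefSeq table also lists B3GNT6 as an older name of B4GAT1, and which of them the row reads was not tested. GCNT1, a relative of GCNT3, was above the limit in all HCT116 columns, with log2 ratios over DMSO from -0.18 to -0.02. It was under the limit in all PANC1 columns. Of 18 genes that cap the chains, FUT3, a fucosyltransferase of Lewis antigens, was higher in HCT116 with ICG-001 at 96 h, at 215 against 131, and as DMSO was under the limit the rise was at least 1.49-fold. ST3GAL3, a sialyltransferase, rose 1.57-fold in PANC1 at 96 h of ICG-001.

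Of 14 genes of protein folding in secretory cells, which include AGR3 and other disulfide isomerases, XBP1 and TXNDC12 rose in HCT116. XBP1, a transcription factor of the unfolded protein response and of secretory cells, rose 2.06-fold at 12 h and 2.09-fold at 96 h with ICG-001. TXNDC12, a thioredoxin-fold protein of the same family as AGR2, rose 2.02-fold at 96 h with ICG-001, from 3053 to 6180. In PANC1 at 96 h of ICG-001 the log2 ratios were 0.50 for XBP1 and 0.57 for TXNDC12, under 1.5-fold. PDIA4, a disulfide isomerase, fell 2.20-fold, from 519 to 236, in PANC1 at 96 h of ICG-001. AGR3 was under the limit in all 12 columns.

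Of 13 transcription factors of secretory lineages, none was called higher against DMSO. SOX9 fell with C646, by 1.41 and 0.71 in HCT116 and by 0.96 and 0.88 in PANC1 on the log2 scale at 12 and 96 h. EHF, an epithelial ETS factor related to SPDEF, fell in HCT116 by 1.08 and 0.63 with C646, and by 0.69 with ICG-001 at 96 h. ATOH1, which specifies the secretory lineage of the gut, was under the limit in all 12 columns. Among 11 genes of goblet cell cargo, FCGBP, a mucus protein that binds the Fc part of IgG, rose 1.79-fold in HCT116 and 2.75-fold in PANC1 at 96 h of ICG-001. At that time its PANC1 signal was 457 with ICG-001, 248 with C646 and 166.5 in DMSO. Of 11 genes of granule exocytosis, SYTL2 fell 2.20-fold in PANC1 at 96 h of ICG-001 and VAMP8 rose 1.53-fold in HCT116 with C646 at 96 h.

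**Figure D4:**
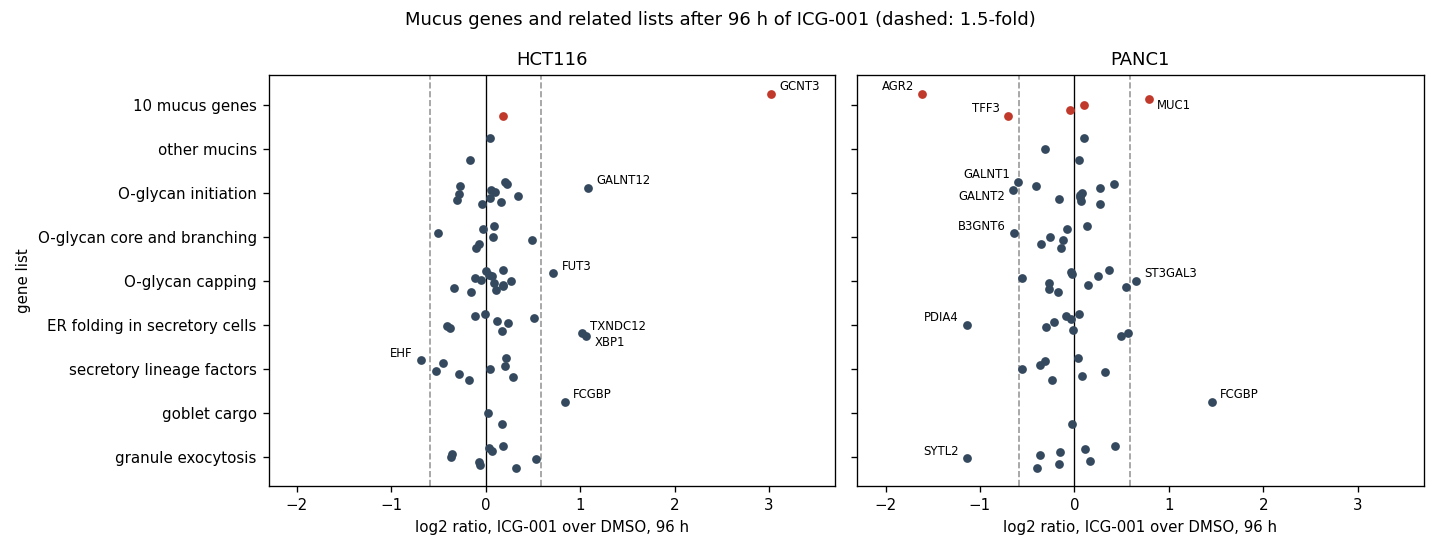
Log2 ratios of ICG-001 over DMSO at 96 h for the 10 mucus genes (red) and 8 related gene lists (dark blue), 1 point per gene measured in the comparison, with dashed lines at 1.5-fold. GCNT3 at 3.02 in HCT116 and AGR2 at -1.61 in PANC1 lie farthest out, and FCGBP lies right of the dashed line in both lines, at 0.84 and 1.46.

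To find which rows of the array had profiles like those of the called genes, log2 signals over the 6 columns of a line were centred on their mean, and rows were ranked by the root mean square difference from the profile of the gene. The 6 columns share the line and 3 treatments, so closeness here is a description with no test. Nearest to GCNT3 in HCT116, among 19154 rows, were KLK7 and KLK6, secreted kallikrein-related proteases, and the hormone FGF19, at differences of 0.29, 0.35 and 0.37, where GCNT3 itself varied by 1.10. KLK7 went from 320 in DMSO to 1607 with ICG-001 at 96 h and KLK6 from 475 to 2570. Nearest to AGR2 in PANC1, among 19336 rows, were LOC100131905, LOC654194 and C18orf56, at 0.12, 0.12 and 0.15. The RefSeq table pairs the first with the pseudogene RPS27P21 and C18orf56 with TYMSOS, a long non-coding RNA. Nearest to MUC1 in PANC1 were F12, which encodes coagulation factor XII, at 0.02, JOSD1 at 0.05 and LOC390557 at 0.06. Nearest to TFF3 were ABCA1, a cholesterol efflux transporter, at 0.08, and KIDINS220 and CYBA, both at 0.09.

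**Figure D5:**
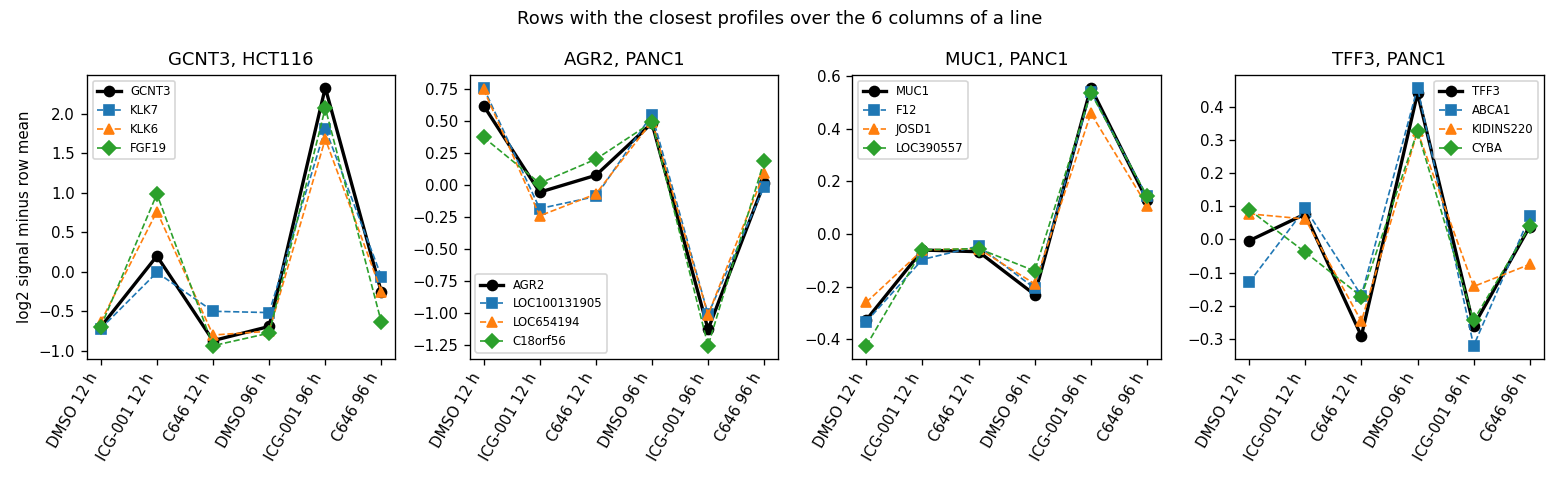
Log2 signal minus the row mean over the 6 columns of a line for GCNT3, AGR2, MUC1 and TFF3 (black) and the 3 rows with the closest profiles to each (dashed). F12 follows MUC1 at a root mean square difference of 0.02, and KLK7, KLK6 and FGF19 share with GCNT3 a maximum at ICG-001 96 h.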

How the data were processed

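What the authors deposited is 1 intensity per gene name and column, on a linear scale. They exported it from GenomeStudio (version not given in the sources used here) after quantile normalization with background left in, and each column averages 2 independent biological replicates, or 3 for PANC1 ICG-001 12 h. How the probes of a gene were joined is not given in the sources used here. Background makes ratios of dim genes too small. Sorted log2 values differed on average by 0.0037 to 0.0093 between columns of a line and by 0.063 to 0.066 between lines.

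Changes are differences of log2 signal between a pair of columns, called at a ratio of at least 1.5 where either signal was above the limit of detection. That limit lay above the peak of the column's log2 values by the number of SD that leaves 1% of a normal distribution above it, and the SD came from values below the peak. Between 15131 and 16409 rows per column exceeded it. "At least" before a fold means that the dimmer signal was replaced by the limit.

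The 10 genes, the lists and the comparisons were chosen with earlier results of these data known, and the promoter motifs after the values were seen. From each list, the text names up to 3 genes with the largest ratio over DMSO among those called, and for each called gene of the 10 the 3 rows with the nearest profile. GCNT1, AGR3 and ATOH1 were named for their role after their values were seen. GALNT1, GALNT5 and GALNT11, which complete the calls of their list, were also named after their values were seen. The alternatives were thresholds of 1.2-fold and 2-fold, calls on dim genes too, a detection limit of 5 SD, normexp (offset 16) with quantile normalization within a line, median centring, and quantile normalization across the 12 columns. Software was Python 3.11.15 with numpy 2.4.6, pandas 2.3.3 and matplotlib 3.10.9, and R 4.3.3 with limma 3.58.1. Some marker genes are not reported here. The calling step was tested on simulated data, with 2-fold changes planted in rows well above the limit. Recovery of changes in dim genes, or under real replicate spread, was not tested.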

Additional observations from a re-analysis of the deposited data

How the results depend on the processing

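No paired analysis was possible because each group had 1 column, an average of its arrays, and for the same reason no replicate could be left out. All 13 calls of the 10 genes over the 18 comparisons remained, in the same direction, without a filter on dim genes, with the limit at 5 SD, after normexp, after median centring and after quantile normalization over all 12 columns, and no called value changed sign. At a 2-fold threshold 7 of the 13 remained. The number of calls against DMSO in HCT116 was 2, and it was 1 at 2-fold and 4 after normexp, which added GCNT3 with C646 at 96 h and MUC2 with ICG-001 at 12 h. In PANC1 it was 4, against 10 at 1.2-fold and 1 at 2-fold. Calls of ICG-001 against C646 numbered 3, and 6 at 1.2-fold. Calls of 96 h against 12 h numbered 4, and 7 at 1.2-fold and 2 at 2-fold. For the related lists, calls against DMSO were 16 in HCT116, and 89 at 1.2-fold, 6 at 2-fold and 52 after normexp, and 11 in PANC1, against 69, 3 and 34. Normexp removes background and so widens ratios of dim genes. After it, the log2 changes at 96 h of ICG-001 were 3.90 for GCNT3, -1.72 for AGR2, 0.87 for MUC1 and -1.03 for TFF3. The median log2 ratio over all genes stayed within -0.02 and 0.02 under each of these settings. Precision is limited by the 2 or 3 arrays averaged per column.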
